A study of Mus musculus with 24 samples.

Results

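Cohesin and CTCF are chromatin proteins, and the genes that encode them and their regulators are themselves stretches of chromatin where both proteins can bind. The binding of CTCF and of the cohesin subunit Rad21 was examined at 10 such genes: the ring subunits Rad21, Smc3 and Stag1, the loader subunits Nipbl and Mau2, the ring-associated regulators Pds5a and Pds5b, the acetyltransferases Esco1 and Esco2, and Ctcf. These 10 of the 21646 protein-coding genes examined were chosen by name, not by a measured value. Earlier results of these data were known when they were chosen. Each was taken as its GENCODE vM1 gene body in mm9 with 10 kb on each side, called its window here. The peaks of 16 deposited lists that lay in these windows merged into 75 sites, out of 85817 merged sites on the mouse chromosomes other than 12 and Y.

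Cohesin is a ring that Nipbl and Mau2 help load onto DNA, where it can move and extrude loops. Pds5 proteins bind the ring and act in its release and its stable hold, and Esco enzymes acetylate Smc3, which protects the ring from release. CTCF binds a long DNA motif and halts moving cohesin, so that both proteins are often found at the same sites, which in B cell precursors include the antigen receptor loci.

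The cells were mouse pro-B cells transformed with v-Abl and kept as lines, deficient in RAG2 and carrying an Emu-Bcl2 transgene. Every group received the Abl kinase inhibitor STI-571 at 3 uM for 4 days. In the Rad21-degron line, Rad21 was precipitated from cells without IAA (2 libraries) and from cells given 500 uM IAA for 6 h before and then along with STI-571 (2 libraries). IAA is an auxin, which in a degron line leads to breakdown of the tagged protein. In the second design the parental line without IAA and the CTCF-degron line with the same IAA treatment each gave 3 CTCF libraries and 3 Rad21 libraries. In that design the line and the IAA treatment change together and cannot be told apart. The labels do not say where in the genome a degron tag was placed, whether a line is a single clone, or whether libraries with different numbers came from separate cultures, so the spread between them may be technical.

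The 16 lists held 1383 to 67809 peaks on mouse chromosomes, and 8 Rad21 libraries also contained chromatin of the human line HCT116 as a spike-in. The read depth behind the lists is unknown, the input libraries were not analysed here, and peak lists give no measure of cell identity. Each list of a depleted group was shorter than every list of its control group except in Rad21 ChIP of the parental and CTCF-degron lines, where the ranges were 29721 to 67809 and 15689 to 35223 peaks. The fold enrichment of a peak is the authors' value, stands on the scale of its own list, and is given here to describe peaks, not to test a difference between lists.

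The DNA at the sites is shown first, because the sites at the genes' own promoters and those inside introns differed in what was left after depletion. Sequences are from the mm9 reference, 60 bases each, read 5′ to 3′ on the strand that carries the motif. Capitals mark the letters of a short core of the CTCF motif, CCANNAGNNGGC, or of its looser form CCNNNAGNNGGC, each searched on both strands. Every sequence that fits the first form also fits the second. In the sites of CTCF at the genes' own promoters the following were found outside annotated exons, 3 of them upstream of the gene and that of Ctcf in its first intron.
Pds5b promoter, chr5:151476244-151476303, plus strand: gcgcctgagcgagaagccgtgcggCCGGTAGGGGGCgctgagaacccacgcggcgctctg
Smc3 promoter, chr19:53674375-53674434, plus strand: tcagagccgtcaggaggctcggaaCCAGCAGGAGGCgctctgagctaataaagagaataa
Nipbl promoter, chr15:8395056-8395115, plus strand: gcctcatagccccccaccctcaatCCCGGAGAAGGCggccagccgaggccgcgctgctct
Ctcf promoter, chr8:108160631-108160690, minus strand: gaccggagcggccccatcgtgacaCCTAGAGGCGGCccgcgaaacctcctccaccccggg
The middle of the capitals lay 40 bp upstream of the nearest Pds5b start and 481 bp upstream of that of Smc3, where a second looser match overlapped the window. The match lay 623 bp upstream of Nipbl and 174 bp upstream of an internal one of the 5 Ctcf starts, downstream of the first. Among the sequences shown, the Smc3 letters fit the stricter form and the others the looser form alone. Matches not shown included the stricter form at the Stag1 and Ctcf promoters, in stretches overlapping an exon, and at the Esco1 promoter. The Nipbl site held a second looser match, 2134 bp upstream of the start.

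The following sequences lay in sites away from the promoters, 6 in introns and that of Mau2 beyond its 3′ end, and had no CTCF peak left in any CTCF-degron library.
Smc3 intron, chr19:53711218-53711277, minus strand: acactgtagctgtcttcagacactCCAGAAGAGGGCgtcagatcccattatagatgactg
Smc3 intron, chr19:53712718-53712777, minus strand: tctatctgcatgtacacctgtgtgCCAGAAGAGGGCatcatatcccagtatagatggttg
Pds5a intron, chr5:66059094-66059153, minus strand: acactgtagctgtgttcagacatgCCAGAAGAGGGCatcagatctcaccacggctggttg
Mau2 downstream, chr8:72536839-72536898, plus strand: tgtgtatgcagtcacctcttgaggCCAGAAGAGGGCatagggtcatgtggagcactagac
Stag1 intron, chr9:100810940-100810999, minus strand: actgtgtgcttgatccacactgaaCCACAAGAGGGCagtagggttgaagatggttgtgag
Nipbl intron, chr15:8332368-8332427, plus strand: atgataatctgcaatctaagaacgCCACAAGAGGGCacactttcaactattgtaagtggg
Pds5b intron, chr5:151505442-151505501, minus strand: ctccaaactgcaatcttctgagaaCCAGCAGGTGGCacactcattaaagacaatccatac
The first 4 of these share the same letters, CCAGAAGAGGGC. All of those shown fit the stricter form. Matches not shown, also with no CTCF peak left, were the stricter form in an Esco1 intron and the looser form alone in another Nipbl intron site (chr15:8356035-8356516). Outside the capitals the first Smc3 sequence and the Pds5a sequence were also alike, with 36 of 48 bases identical. The central 31 bp of that Smc3 site occurred 17 times in the reference, so reads there can have more than 1 best place. Of the 61 control sites around the 10 genes it was the only one whose central 31 bp had more than 1 copy.

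Over the parental CTCF sites in the windows, 11 of 27 (40.7%) held CCANNAGNNGGC in their central 300 bp, against 38.2% of all 32178 parental CTCF sites. Sequence of the same length 5 kb away held it in 0 of 27 cases and in 2.81% of all. With the looser letters the shares were 48.1% in the windows, 46.9% over all sites and 5.26% in the sequence 5 kb away. In the windows the stricter letters were found in 8 of 17 sites with no CTCF peak left after depletion (47.1%, against 43.1% of all such sites). They were found in 3 of 10 sites with a peak left in 1 or more libraries (30%, against 25.6%). This order between the members' sites depended on what was searched. With the looser letters over the whole site, 8 of 10 sites with a peak left held the core (80%) and 9 of 17 with none left (52.9%), against 48.8% and 56% of all such sites and 63% of the 27 together. Over their central 300 bp the members' sites thus held the core about as often as CTCF sites in general. The letters CCAGAAGAGGGC occurred in 4475 of the 32178 sites, and 87.4% of those 4475 had no CTCF peak in any CTCF-degron library, beside 71.9% of all sites. These had the highest share of the letters counted so. The looser letters in another Nipbl intron site had 77.6% (58 sites). Those shown in the Stag1 and Nipbl introns had 76.8% (440 sites) and those in the Pds5b intron 72.6% (449). Those shown at the Smc3 promoter had 72% (82 sites), and the rest 0% to 70%, each in 20 or fewer sites. Of all sites over 1000 bp from a start, 76.8% had no peak left. Whether the letters bear on what was left was not tested. A match is a description of letters and not of binding.

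CTCF and Rad21 were found at the promoters of most of these genes, but not of all. Rad21, Mau2 and Esco2 had no CTCF peak at the promoter in any parental library. The Rad21 gene was the only member with no CTCF peak anywhere in its window. A promoter peak is one within 1000 bp of an annotated transcript start of the gene. In parental CTCF libraries, 7 of the 10 genes had a promoter peak in every library (Smc3, Stag1, Nipbl, Pds5a, Pds5b, Esco1 and Ctcf), beside 25.7% of all protein-coding genes. In parental Rad21 libraries, 6 of 10 had a promoter peak in every library (Smc3, Stag1, Mau2, Pds5a, Pds5b and Ctcf), beside 25.1%. In Rad21 libraries of the untreated Rad21-degron line, 6 of 10 did (Smc3, Stag1, Nipbl, Pds5a, Pds5b and Ctcf), beside 15.5%. Smc3, Stag1, Pds5a, Pds5b and Ctcf were in all 3 of these sets. A gene with more annotated starts offers more places for a promoter peak. The members had from 1 start (as in Nipbl and Pds5a) to 14 (Stag1). The shares of all genes given beside promoter counts were not matched for the number of starts.

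**Figure D1:**
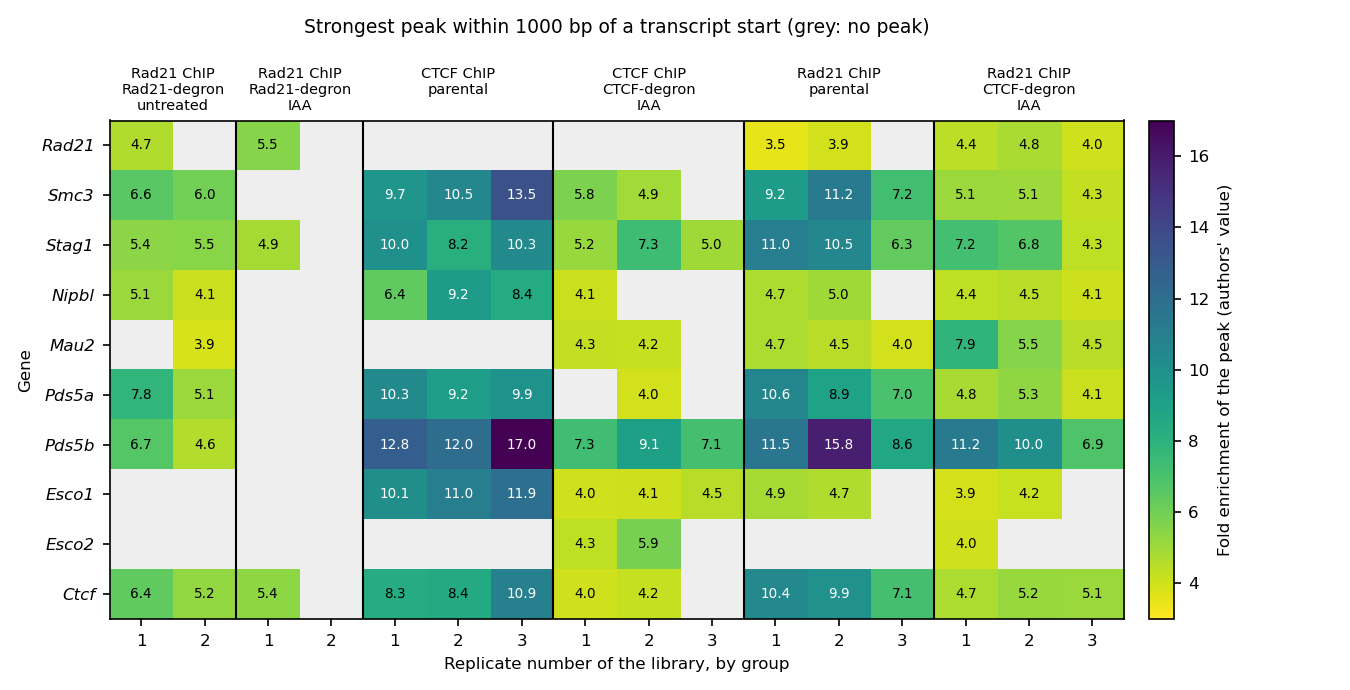
Fold enrichment (authors' value, colour and number) of the strongest peak within 1000 bp of a transcript start of each gene, with 1 column per library and grey where no peak was listed. The Rad21 row is empty in all CTCF libraries, while the Pds5b row holds the highest CTCF value, 17.

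Rad21 (chr15:51794151-51823306, minus strand) encodes the subunit that closes the ring and was itself the protein precipitated. No CTCF library had a peak anywhere in its window, in either line. Rad21 peaks at its promoter had a fold enrichment of 4.66 in replicate 1 of the untreated degron line and were not listed in replicate 2. After IAA the value was 5.53 in replicate 1, with no peak in replicate 2. The parental libraries had 3.5, 3.94 and no peak, and the CTCF-degron libraries 4.39, 4.76 and 3.99. Peaks on the Rad21 promoter were thus present in some control libraries, had values from 3.5 to 5.53, and did not separate the depleted from the control groups.

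Smc3 (chr19:53674886-53720323, plus strand) encodes an arm of the ring. Its promoter had CTCF peaks of 9.71, 10.5 and 13.5 in the parental libraries, and of 5.75, 4.94 and none in the CTCF-degron libraries. The Rad21 peaks there were 9.25, 11.2 and 7.24 in the parental and 5.1, 5.07 and 4.31 in the CTCF-degron libraries. The untreated Rad21-degron libraries had 6.57 and 5.97, and neither library with IAA had a peak. The promoter therefore had a Rad21 peak in all 3 Rad21 libraries of the CTCF-degron line and a CTCF peak in 2 of its 3 CTCF libraries.

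Stag1 (chr9:100498217-100858964, plus strand) encodes a subunit that binds the ring through Rad21. Its promoter site (chr9:100542913-100544427 in CTCF ChIP) lay at a group of starts inside the annotated gene, and no library had a peak at the start farthest upstream. CTCF peaks there were 9.98, 8.19 and 10.3 in the parental and 5.16, 7.34 and 5.01 in the CTCF-degron libraries. Rad21 peaks were 11, 10.5 and 6.35 in the parental and 7.19, 6.76 and 4.33 in the CTCF-degron libraries. Without IAA the Rad21-degron line had values of 5.41 and 5.51, then 4.87 in IAA replicate 1 and none in IAA replicate 2. Stag1 kept a CTCF peak and a Rad21 peak at its promoter in every CTCF-degron library.

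Of the loader genes, Nipbl (chr15:8241225-8394463, minus strand) had CTCF promoter peaks of 6.41, 9.25 and 8.38 in the parental libraries. In the CTCF-degron line 1 peak was left, at 4.12 in replicate 1. Its Rad21 promoter peaks were 4.71, 5.01 and none in the parental libraries and 4.36, 4.5 and 4.06 in the CTCF-degron libraries. Rad21-degron cells had 5.08 and 4.13 without IAA and none after IAA. Mau2 (chr8:72540022-72566633, minus strand), whose start lies beside that of the divergent gene Sugp1, had the opposite arrangement. No parental CTCF library had a promoter peak there, while CTCF-degron replicates 1 and 2 had peaks of 4.27 and 4.23. Rad21 was listed at the Mau2 promoter in every library of both lines, at 4.71, 4.52 and 3.96 in the parental and 7.86, 5.55 and 4.49 in the CTCF-degron libraries. The untreated Rad21-degron line had it in replicate 2 only (3.87), and no library with IAA had it.

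Pds5a (chr5:66006499-66089095, minus strand) had CTCF promoter peaks of 10.3, 9.19 and 9.86 in the parental libraries and 1 peak of 3.96, in replicate 2, in the CTCF-degron line. Its Rad21 promoter peaks were 10.6, 8.87 and 7.01 in the parental and 4.83, 5.3 and 4.12 in the CTCF-degron libraries. Without IAA the Rad21-degron line had 7.78 and 5.11, and with IAA none. Pds5b (chr5:151476314-151613265, plus strand) had the strongest CTCF promoter peaks of the 10 genes, at 12.8, 12 and 17 in the parental and 7.31, 9.06 and 7.12 in the CTCF-degron libraries. The CTCF-degron values ranked at the 96.2, 92.7 and 93.4 percentiles of their own lists. Rad21 at the Pds5b promoter was 11.5, 15.8 and 8.61 in the parental and 11.2, 10 and 6.86 in the CTCF-degron libraries. It was 6.7 and 4.61 in Rad21-degron cells without IAA, and neither IAA library had a peak. The promoter with the strongest CTCF peaks thus had both proteins listed in every library of the CTCF-degron line, but no Rad21 peak after loss of Rad21.

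Esco1 (chr18:10566510-10610350, minus strand) had CTCF promoter peaks of 10.1, 11 and 11.9 in the parental and 4.03, 4.09 and 4.51 in the CTCF-degron libraries. Rad21 was listed there in 2 of 3 parental libraries (4.86 and 4.67), in 2 of 3 CTCF-degron libraries (3.89 and 4.15), and in none of the Rad21-degron line. Among the 7 genes with CTCF in every parental library it was the only one without Rad21 in every library of either control group. Esco2 (chr14:66437875-66452831, minus strand), the acetyltransferase active in S phase, had no promoter peak in any control library of either antibody. CTCF-degron replicates 1 and 2 had CTCF peaks of 4.33 and 5.86 there, and replicate 1 had a Rad21 peak of 4.03. Mau2 and Esco2 were the genes with a CTCF promoter peak listed after CTCF depletion and in no parental library.

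Ctcf (chr8:108160468-108206822, plus strand) had CTCF at its own promoter in every parental library, at 8.34, 8.44 and 10.9. The CTCF-degron libraries had 3.99 and 4.21 in replicates 1 and 2, of which only the second overlapped the parental site, and none in replicate 3. Rad21 peaks at the Ctcf promoter were 10.4, 9.9 and 7.13 in the parental and 4.71, 5.16 and 5.09 in the CTCF-degron libraries. In the Rad21-degron line they were 6.4 and 5.25 without IAA, then 5.38 in IAA replicate 1 and none in IAA replicate 2. CTCF protein was thus found at the promoter of its own gene, while Rad21 protein was found at that of Rad21 in 3 of the 5 control Rad21 libraries.

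After depletion of Rad21, no member had a Rad21 promoter peak in both IAA libraries, beside 0.956% of all genes. The 3 that had any (Rad21, Stag1 and Ctcf) had it in IAA replicate 1 alone, so that without replicate 2 the count was 3. After depletion of CTCF, 3 of 10 (Stag1, Pds5b and Esco1) had a CTCF promoter peak in every library, beside 10.5% of all genes. That count rests on CTCF-degron replicate 3, the shortest of the 3 lists with 8214 peaks, and was 7 without it. Rad21 in the CTCF-degron line was listed at 8 of 10 promoters in every library (all but Esco1 and Esco2), beside 28.2% of all genes. With only peaks of a q-value of 0.001 or less this count was 2. The count of 8 stands above the 6 of the parental line because Rad21 and Nipbl lacked a peak in parental replicate 3. Without that library the parental count was 9. For the counts with a library left out or a stricter q-value, no share of all genes was calculated.

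The number of peaks in each window was then compared between groups. A gene was counted where every depleted library had fewer peaks than any control library, and an exact two-sided permutation test over libraries was adjusted by the Benjamini-Hochberg method over all 21646 genes. No gene can pass, since 2 libraries against 2 allow no p below 0.33 and 3 against 3 none below 0.1. The smallest adjusted p was 0.819 after Rad21 depletion, 0.21 for CTCF and 0.667 for Rad21 after CTCF depletion, and 0 genes had an unadjusted p under 0.05. The counts below are therefore descriptions, read beside the same count over all genes and over the 10581 genes with windows as long as those of the members. Member windows had a median length of 65.9 kb, against 35.3 kb for all genes.

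After Rad21 depletion, 7 of 10 members had fewer Rad21 peaks in both IAA libraries (Smc3, Stag1, Nipbl, Pds5a, Pds5b, Esco2 and Ctcf). The same was true of 40.4% of all genes and of 50.3% of genes in the members' length range. The 10 windows together held 24 and 18 peaks without IAA and 3 and 1 with IAA. As a share of each list this was 0.0729% and 0.0815% without and 0.0836% and 0.0723% with IAA, so the windows' number went with that of the whole list. Smc3 had 4 and 3 peaks without IAA and 0 in both IAA libraries. Nipbl had 5 and 2, Pds5a 2 and 3 and Esco2 1 and 1, each with 0 in both IAA libraries. Pds5b had 4 and 4 peaks, then 0 and 1, Stag1 3 and 2, then 1 and 0, and Ctcf 2 and 2, then 1 and 0. The groups overlapped for Rad21 (1 and 0 in either group), Mau2 (0 and 1, then 0 and 0) and Esco1 (2 and 0, then 0 and 0). No member had more peaks after depletion, beside 0.254% of all genes. The median difference in mean peak number was -1.75 over the members, -0.5 over all genes and -1 in the length range.

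In CTCF ChIP, 6 of 10 members had fewer peaks in every CTCF-degron library (Smc3, Stag1, Nipbl, Pds5a, Pds5b and Ctcf), beside 47.6% of all genes and 59.3% in the length range. The windows held 36, 44 and 38 peaks in the parental and 11, 15 and 6 in the CTCF-degron libraries. These were 0.0688%, 0.0925% and 0.0814% of the parental lists and 0.0709%, 0.0952% and 0.073% of the CTCF-degron lists, ranges that overlap. The Ctcf window had 6, 9 and 8 peaks in the parental libraries, the most of any member, and 1, 1 and 0 in the CTCF-degron libraries. Nipbl had 5, 8 and 7, then 2, 1 and 1, and Smc3 5, 6 and 5, then 1, 1 and 0. Pds5a had 6, 4 and 4, then 0, 2 and 0, Stag1 4, 4 and 3, then 1 in each, and Pds5b 4, 7 and 5, then 2, 3 and 2. Esco1 overlapped, with 4, 3 and 3 peaks and then 2, 3 and 2, as did Esco2 (1, 2 and 2, then 1, 2 and 0) and Mau2 (1 in each, then 1, 1 and 0). Rad21 had 0 throughout. No member had more, beside 0.157% of all genes. The median difference was -2.83 over the members, -1 over all genes and -1.67 in the length range.

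For Rad21 after CTCF depletion, 2 of 10 members had fewer peaks in every CTCF-degron library (Smc3 and Pds5b), beside 14.9% of all genes and 18.3% in the length range. The windows held 48, 34 and 22 peaks in the parental and 27, 22 and 15 in the CTCF-degron libraries. These were 0.0708%, 0.0774% and 0.074% of the parental lists and 0.0767%, 0.0848% and 0.0956% of the CTCF-degron lists. Smc3 had 6, 4 and 3 peaks, then 1 in each. Pds5b had 6, 6 and 5, then 2, 2 and 3. Ctcf had 8, 8 and 4 peaks and then 3, 4 and 2, so that the groups met at 4, and Pds5a had 7, 3 and 2, then 1, 2 and 1. Nipbl had a mean of 4.67 peaks in both lines, with 7, 5 and 2 in the parental and 6, 6 and 2 in the CTCF-degron libraries. The equal means do not stand for the same sites. All Nipbl peaks of the CTCF-degron libraries lay in the merged sites at or near the start and in that upstream of it, several peaks to a site. The merged intron sites with parental Rad21 peaks had none. Stag1 had 4, 3 and 4, then 3, 3 and 2, Esco1 3, 2 and 1 in both lines, and Mau2 3, 2 and 1, then 2, 1 and 1. The Rad21 gene (2, 1 and 0, then 3, 1 and 1) and Esco2 (2, 0 and 0, then 3, 0 and 1) also overlapped. No member had more, beside 0.115% of all genes. The median difference was -0.833 over the members, -0.333 over all genes and -1 in the length range. Without parental replicate 3, whose list was the shortest of its group, the count was 4 of 10 members and 6874 of all genes in place of 3220. Without CTCF-degron replicate 2 the count of members was also 4. Replicates 2 and 3 of both lines had the spike-in, and these alone gave 2 members and 4875 genes. Replicate 1, without it, is 1 library per line and gives no comparison of its own. Counted within libraries of the same replicate number, 4 members and 5839 genes had fewer peaks in each CTCF-degron library than in its parental counterpart.

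Counts of this kind follow the length of the lists. With every list of a comparison shortened to the shortest by fold enrichment, 0 members had fewer Rad21 peaks after Rad21 depletion (612 of all genes). For CTCF 2 did (1677 of all genes), and for Rad21 after CTCF depletion 2 did (1901 of all genes).

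**Figure D2:**
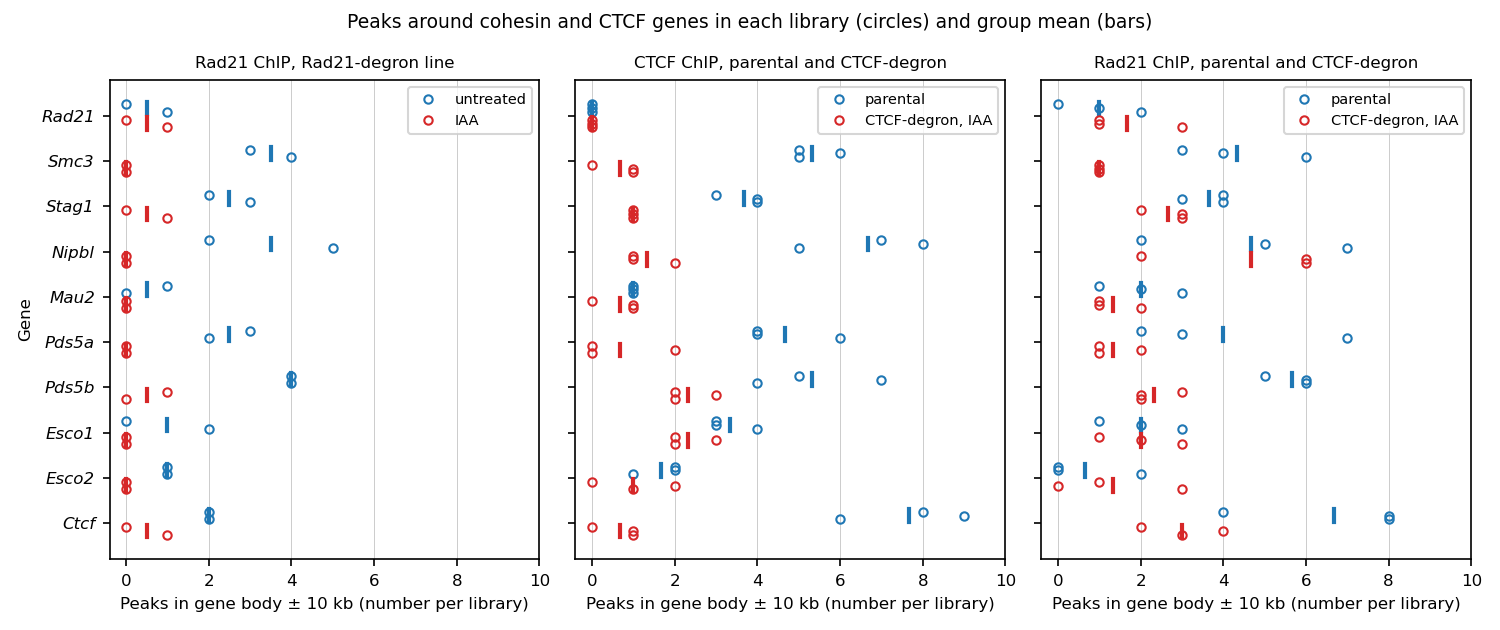
Number of peaks in the gene body and 10 kb on each side (horizontal axis) for the 10 genes, with 1 circle per library, blue for control and red for depleted groups, and a bar at the group mean. Ctcf has 6 to 9 CTCF peaks in the parental libraries and 0 or 1 in the CTCF-degron libraries. The Nipbl means of Rad21 peaks are equal in both lines, though the peaks lie at partly different sites.

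Single sites were followed next. A control site is a merged region with a peak in every control library of a comparison, and it counted as kept in a depleted library with a peak sharing 1 bp or more with it. Sites were also divided into those within 1000 bp of a transcript start of any protein-coding gene and those elsewhere. In the Rad21-degron line the windows held 16 control sites, of which the IAA libraries kept 9.38% ± 4.42 (SD, n = 2), beside 4.94% ± 2.82 (SD, n = 2) of all 17800. With at least 50% of a site covered the share was 0%. With lists shortened to the shortest a single control site was left in the windows. No peak was left in either library at 13 of the 16 sites, beside 92.7% of all sites. Of the 10 sites at a start 7 had none left (80.3% of all such sites), and of the 6 elsewhere 6 had none left (95.4%). The 3 sites with a peak were the promoters of Stag1 and Ctcf in IAA replicate 1 and the promoter of N4bp2l2, in the Pds5b window, in IAA replicate 2. The last (chr5:151468126-151468670) was the strongest of these 16 sites in the untreated degron line, with a fold enrichment of 8.65 ± 0.437 (SD, n = 2), and had 4.38 in that IAA library. Its rank there was at the 7.01 percentile of the list.

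In CTCF ChIP the windows held 27 parental sites, of which the CTCF-degron libraries kept 28.4% ± 5.66 (SD, n = 3), beside 20.2% ± 5.78 (SD, n = 3) of all 32178. It was 4.94% with at least 50% of a site covered, 14.6% for the 55 sites of at least 1 parental library, and 60% of 10 sites with lists shortened to the shortest. No CTCF peak was left at 17 of the 27. At a start 3 of 12 sites had none left, beside 49% of all such sites, and elsewhere 14 of 15, beside 76.8%. The mean parental fold enrichment of the sites at a start ranged from 3.63 to 13.9 with a median of 10.4, and that of the sites elsewhere from 3.6 to 11.2 with a median of 6.8. Strength and position therefore moved together in these sites. The sites at a start were also mostly wider, such as chr5:66087738-66090051 at Pds5a against chr19:53711178-53711380 in Smc3. A wider site more easily shares 1 bp with a peak, and the share with at least 50% covered was not split by position. The parts of strength, position and width in what was left were not tested. Sites kept in all 3 CTCF-degron libraries numbered 6. They were the promoters of Stag1, Pds5b and Esco1, the neighbouring promoters of N4bp2l2 and Snrpd1, and a site upstream of Nipbl.

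The site upstream of Nipbl (chr15:8400545-8401575, intergenic) lay about 6.6 kb from its start. Its CTCF fold enrichment was 11.2 ± 2.33 (SD, n = 3) in the parental libraries and 5.11, 7.2 and 4.99 in the CTCF-degron libraries. It was the only one of the 15 CTCF sites away from a start that had a peak left in any CTCF-degron library. The Rad21 site at the same place (chr15:8400828-8401886) had 13 ± 2.58 (SD, n = 3) in the parental and 6.87, 6.6 and 5 in the CTCF-degron libraries. Among the 10 Rad21 sites away from a start it was again the only one left in the CTCF-degron line. In the Rad21-degron line it had 6.2 ± 0.438 (SD, n = 2) without IAA and no peak after IAA. Neither form of the CTCF core was found in the CTCF site. The Snrpd1 promoter, in the Esco1 window (chr18:10617294-10618082), had CTCF at 12 ± 0.921 (SD, n = 3) and then 8.16, 14.2 and 7.04, values at the 97.9, 99 and 92.9 percentiles of the CTCF-degron lists.

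The site beyond the 3′ end of Ctcf went the other way. It lay at the promoter of the neighbouring gene Rltpr (chr8:108209496-108210240) and had a CTCF fold enrichment of 12.9 ± 1.42 (SD, n = 3) in the parental libraries, at a mean rank of the 97.6 percentile. Rad21 there (chr8:108209206-108210710) was 16.3 ± 4.58 (SD, n = 3), the strongest Rad21 site of the windows in the parental line. In the untreated Rad21-degron line it was 8.14 ± 0.0628 (SD, n = 2). No library of any depleted group had a peak overlapping these sites, neither of CTCF nor of Rad21.

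**Figure D3:**
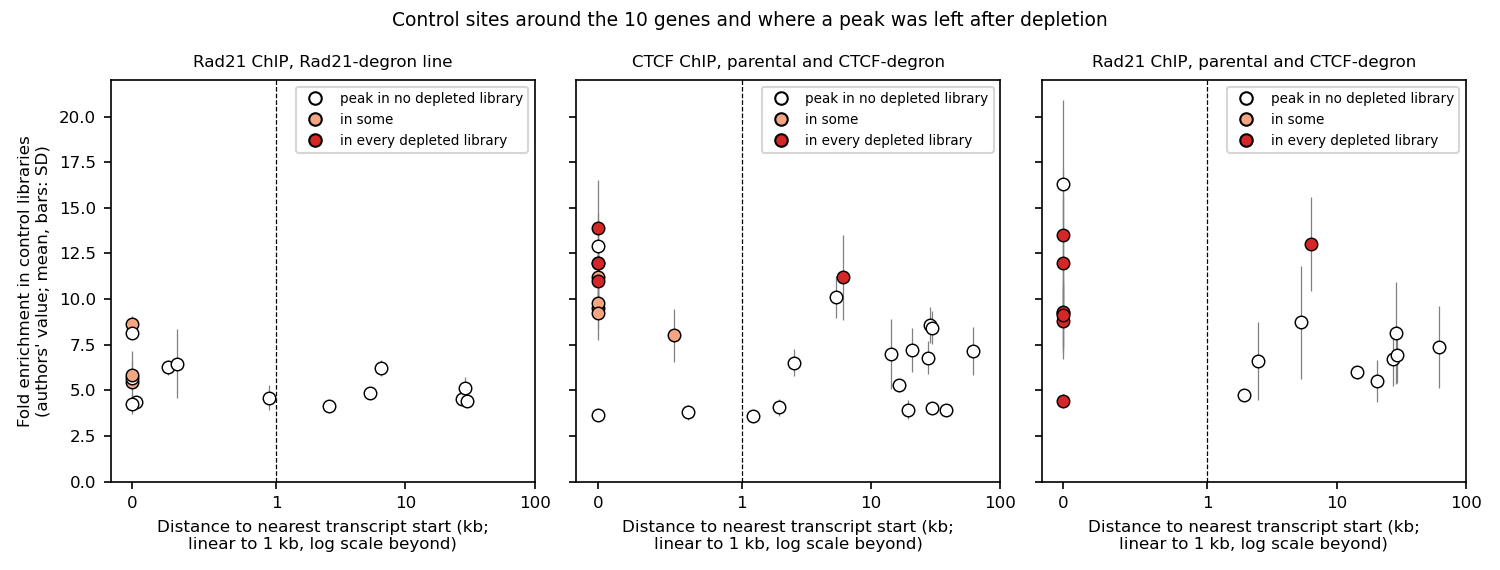
Fold enrichment of each control site around the 10 genes (vertical axis, authors' value, mean with SD over control libraries) against its distance to the nearest transcript start (horizontal axis in kb, linear to 1 kb and logarithmic beyond). White points had no peak in any depleted library and dark red points had one in each. In the right panel 7 of the 8 points left of the dashed line at 1 kb are dark red, and 1 of the 10 to its right.

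For Rad21 after CTCF depletion the windows held 18 parental sites, and each CTCF-degron library kept 44.4% of them, beside 48.4% ± 10.9 (SD, n = 3) of all 23897. The same 8 sites were kept in all 3 libraries and the other 10 in none, beside 41.5% of all sites with none left. At a start 1 of 8 sites had no peak left (14.4% of all such sites), that at Rltpr. Elsewhere 9 of 10 had none left, beside 49.8%. The 7 kept sites at a start were the promoters of Smc3, Stag1, Mau2, Pds5a, Pds5b and Ctcf and that of N4bp2l2. With at least 50% of a site covered by a peak the share kept was 25.9%, and for the 51 sites of at least 1 parental library it was 26.8%. Here too the sites at a start were wider than those elsewhere, and the share with 50% covered was not split by position.

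The 9 sites away from a start with no Rad21 peak left lay in introns or between genes. They were the Smc3 intron (6.6 ± 2.12, SD, n = 3) and the site 3′ of Smc3 (8.74 ± 3.09, SD, n = 3), both Stag1 introns (5.54 ± 1.15 and 6.74 ± 1.5, SD, n = 3) and the Nipbl intron (7.38 ± 2.25, SD, n = 3). Pds5b had 3 of them, with 8.13 ± 2.78 and 6.94 ± 1.56 in introns and 4.73 ± 0.104 upstream (SD, n = 3). The last was in the Ctcf intron (5.98 ± 0.373, SD, n = 3).

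The sites with Rad21 left were set beside those with CTCF left. Of the 18 parental Rad21 sites, 16 overlapped a parental CTCF site. At 7 of the 16 a CTCF peak was left in 1 or more CTCF-degron libraries, and all 7 had Rad21 in all 3 libraries (100%, beside 90.8% ± 11.7, SD, n = 3, of all such sites). At the other 9 no CTCF peak was left, and none of them had Rad21 (0%, beside 14% ± 8, SD, n = 3, of all such sites). This division nearly repeated that by position. Of the 7, all but the site upstream of Nipbl lay at a start. Of the 9, all but that at Rltpr lay elsewhere. Position and CTCF left were therefore not told apart in these sites, and their parts were not tested. The 2 proteins were not listed in the same number of libraries at each site. The sites at the Smc3, Pds5a and Ctcf promoters had Rad21 in all 3 CTCF-degron Rad21 libraries. The parental CTCF site had no peak in CTCF-degron CTCF replicate 3 at Smc3, and in replicates 1 and 3 at Pds5a and Ctcf. The list of that replicate 3 was the shortest of its group, with 8214 peaks. The labels do not link a Rad21 library to the CTCF library of the same number, so the 2 cannot be paired. The 2 Rad21 sites that overlapped no parental CTCF site were the Mau2 promoter, kept in all 3, and the site upstream of Pds5b, kept in none. The latter had a CTCF peak of 3.58 in parental replicate 2 alone. The 2 antibodies were used on the same lines, so these are not independent observations.

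**Figure D4:**
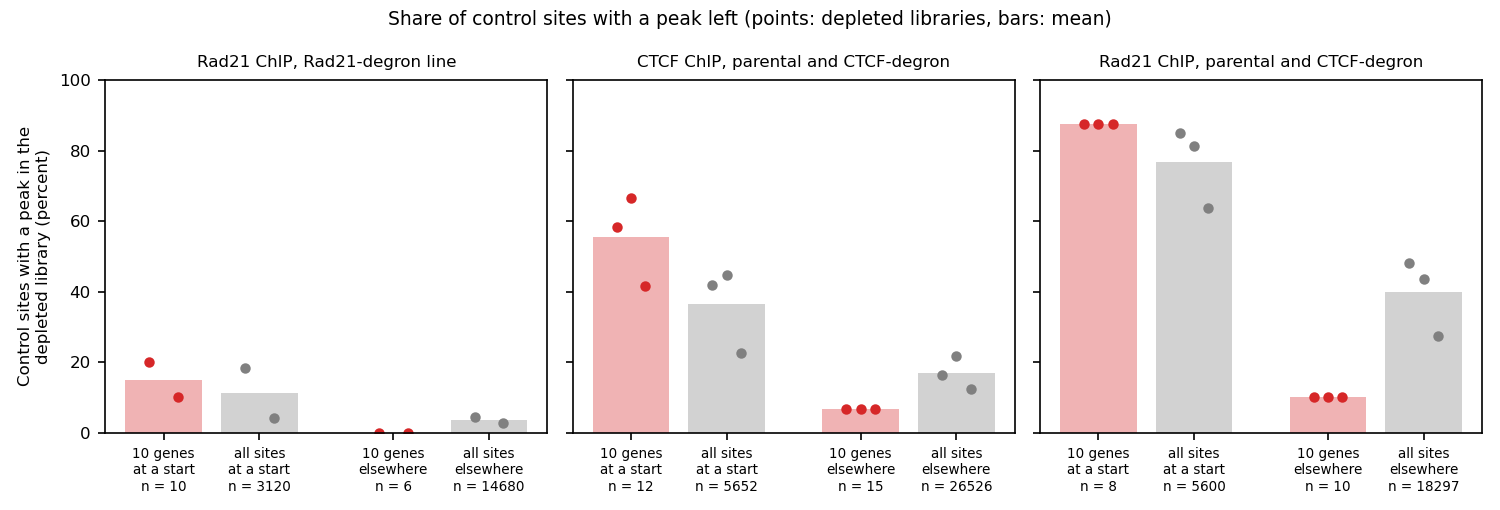
Percent of control sites with a peak in each depleted library (points) and the mean (bars), for sites around the 10 genes in red and for all sites in grey, at a transcript start or elsewhere, with the number of sites under each bar. Around the 10 genes 87.5% of Rad21 sites at a start and 10% of those elsewhere were kept in the CTCF-degron line, beside 76.8% and 39.8% of all sites.

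Other genes of the pathway were counted as lists. Of 17 further genes tied to cohesin or CTCF, 10 had fewer Rad21 peaks after Rad21 depletion and 14 fewer CTCF peaks after CTCF depletion. Fewer Rad21 peaks after CTCF depletion were found for 3, and none was higher in any comparison. The shares of all genes were 40.4%, 47.6% and 14.9%, not matched for window length. A promoter peak in every control library was found for 2, 4 and 2 of them, in the same order, beside 15.5%, 25.7% and 25.1% of all genes. In every depleted library it was found for 0, 0 and 5, beside 0.956%, 10.5% and 28.2%. Stag2, the paralogue of Stag1, was the only one of the 17 with promoter peaks in every control library of both antibodies, 2 of 2, 3 of 3 and 3 of 3. It had Rad21 in 0 of 2 IAA libraries, CTCF in 1 of 3 and Rad21 in 2 of 3 CTCF-degron libraries. Of 7 genes of condensin, a related ring complex, 3, 3 and 0 had fewer peaks and none had more, beside the same shares of all genes. A promoter peak in every control library was found for 2, 4 and 3 of them and in every depleted library for 1, 1 and 4. Smc2 and Smc4 had promoter peaks in every control library of both antibodies. Smc4 had Rad21 in 2 of 2 libraries after Rad21 depletion, Smc2 in 1 of 2, and both had CTCF in 2 of 3 and Rad21 in 3 of 3 CTCF-degron libraries.

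Likeness to other genes was measured as the Euclidean distance over the 16 libraries in the percentile rank of the strongest peak in the window, with 0 where there was none. Nearest to Rad21 were Klra10 (47.4), Atxn7l3b (50.9) and Gypc (51.9), against a median of 179 over all genes. Nearest to Ctcf were Fbxo48 (28.2), Mtrf1 (39) and Hpse (39.7), against a median of 205.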

How the data were processed

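ChIP-seq of Rad21 and CTCF was represented by 16 broad peak lists, 1 per library, with no replicates pooled. Reads were aligned with Bowtie2 2.2.8 and handled with SAMtools 1.8, per the submitters' processing notes, to a hybrid of AJ851868 and mm9, per the labels. The peak caller, its threshold and the use of inputs are not given in the sources used here. The authors deposited for each peak a fold enrichment (a linear ratio), −log10 p-values and q-values, and a score equal to the whole part of 10 times the −log10 q-value. The fold enrichment and the q-values were used, and the p-values and the score were not.

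Peaks on mouse chromosomes were joined to GENCODE vM1 genes with Python 3.11.15, numpy 2.4.6 and scipy 1.17.1, and sequences were read with pysam 0.24.0. Chromosome 12 was left out of gene and site counts, because peaks there run past the end of the reference, and so was Y. Counts were tested on simulated data first. Read depth is unknown, so no counting interval was given. The members and lists were chosen with earlier results of these data known, and the genes named are all members, list genes with promoter peaks in every control library of both antibodies, and the 3 genes nearest Rad21 and Ctcf. Sites named are those at member promoters, the strongest control sites and those kept in every depleted library. The intronic and intergenic sites also named, the division into sites at a start and elsewhere, and that by CTCF left, were chosen after the values were seen. Alternatives covered peak thresholds, list length, joined peaks, windows, overlap, replicates left out, the replicate block, the spike-in and the motif.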

Additional observations from a re-analysis of the deposited data

Results flagged for a closer look

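The lists of the 8 libraries with the HCT116 spike-in also hold peaks on human contigs, which no comparison used. They number from 319, in Rad21 ChIP of the CTCF-degron line (replicate 3), to 14878, in the untreated Rad21-degron line (replicate 2), and the other 8 lists hold 0.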

How the results depend on the processing

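Of 195 recalculations 157 stayed within 1.5 times the count, or within 1 SD of the percentage, and 38 moved. Lists shortened to the shortest gave 612, 1677 and 1901 genes with fewer peaks (Rad21 after Rad21 depletion, CTCF, Rad21 after CTCF depletion). They gave 0 members for the first and 2 for CTCF, 0 Rad21 promoter peaks in the untreated degron line, and 50% of 1 member site, 60% of 10 and 53.85% of 13 kept. With q-values of 0.001 or less, 5346 genes had fewer Rad21 peaks after Rad21 depletion. For Rad21 after CTCF depletion 5 members did, 38.1% of sites were kept and 2 promoters had a peak in every depleted library. At a fold enrichment of 4 or more, sites kept were 36.67% for CTCF and 41.18% for Rad21 after CTCF depletion. The gene body alone gave 5077, 6363 and 1935 genes, and 1 member for the last. With 5 kb flanks, sites kept were 19.44% for CTCF and 40% for Rad21 after CTCF depletion. With 50% of the site covered they were 0%, 4.938% and 25.93% in the 3 comparisons. For sites of at least 1 control library they were 14.55% for CTCF and 26.8% for Rad21 after CTCF depletion. Joined peaks gave 4 members for the last comparison, and the spike-in libraries alone 4875 genes and 43.75% of sites. Starts of coding transcripts alone, added after seeing the data, moved no promoter count, and other motif letters or the whole site kept the motif share within its 95% binomial interval.

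With each replicate left out, genes with fewer peaks ranged from 8830 to 11657, from 10347 to 11141 and from 3282 to 6874, and members from 7 to 8, 6 to 7 and 2 to 4. Sites kept ranged from 6.25% to 12.5%, 24.73% to 31.48% and 41.11% to 44.44%. Promoters with a peak in every control library ranged from 6 to 7, stayed at 7, and ranged from 6 to 9. Those in every depleted library ranged from 0 to 3, 3 to 7 and 8 to 9. Promoter counts under the alternatives were not calculated over all genes.

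The labels do not say whether libraries of the same replicate number share a batch, and the main counts are unpaired. Same-numbered deviations over genes correlated at 0.139 in the Rad21-degron line and at 0.142, -0.0415 and 0.104 for CTCF. For Rad21 after CTCF depletion they correlated at 0.357, 0.0897 and 0.319. In that last set each library correlated best with its own number, and the libraries with and without the spike-in had the same numbers in both lines. With the replicate block 9250, 11150 and 5839 genes and 7, 6 and 4 members had fewer peaks, and the shares of sites kept were by construction 9.375%, 28.4% and 44.44%. Promoter counts have no paired form. All of these counts are limited by the length of the lists, whose read depth is unknown.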
